A study of Mus musculus with 12 samples.

Results

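YY1 binding in mouse bone marrow progenitors was examined at 1686 weak distal regions, the sites far from gene starts at which both deeper libraries had a YY1 peak and both shallower libraries had none. The regions were chosen by the peak calls themselves. Overlapping peaks of the 4 YY1 lists (1 bp or more in common) were joined into 19768 merged regions, and a merged region was kept when it lay on chromosomes 1 to 19, had a peak in both replicate 2 libraries and in neither replicate 1 library, and lay more than 3 kb from the start of every GENCODE M21 transcript (mouse build mm10, GRCm38). Presence and absence of peaks, and peak size in these libraries, are therefore a description of the regions and carry no test. Sequence and genomic position were not used in the choice, apart from the distance to a transcript start, and these were tested.

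The study profiled YY1 by ChIP-seq in bone marrow cells depleted of mature lineages (Lin−) from female 129Sv4/Jae x B6 mice aged 3 months, with 2 wild-type (WT) libraries and 2 libraries from XistΔ/Δ mice. The XistΔ/Δ mice are homozygous knockouts, in which both floxed Xist alleles were deleted by Vav-iCre. This Cre transgene is driven by sequences of the blood gene Vav1, so the loss is restricted mostly to blood cells. All 4 libraries share the strain background, sex, age and antibody, and the labels do not state whether WT mice carried the transgene or whether marrow of several animals was pooled. The other 8 samples of the series are histone mark libraries and were not analysed here.

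YY1 is a zinc finger transcription factor found at most active promoters and at many enhancers, where it can hold promoter and enhancer DNA together. It recognises a short motif around the letters ATGG. Distal sites of blood progenitors are usually also bound by blood transcription factors such as PU.1, RUNX1, C/EBP and GATA proteins, each with its own short recognition sequence. The first set of sequences shows the YY1 motif as it occurred in 3 of the 10 weak distal regions ranked highest by width and in 5 regions, of lower rank, near genes of blood stem and progenitor factors. Each is a stretch of 60 bases of GRCm38 from RefSeq, read on the strand of the motif, with the 8 letters of the core motif AANATGGC in capitals, and each is named after the protein-coding gene with the nearest start or, for blood factor loci, after the factor gene.

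Vmn1r2 (chr4:3090603-3090662, plus strand): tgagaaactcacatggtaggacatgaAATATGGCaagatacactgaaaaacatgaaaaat
Prl2c3 (chr13:12820517-12820576, minus strand): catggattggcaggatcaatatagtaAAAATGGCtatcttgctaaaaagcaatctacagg
Fam43a (chr16:30788727-30788786, minus strand): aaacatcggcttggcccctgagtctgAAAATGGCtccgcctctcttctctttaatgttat
Hhex (chr19:37528246-37528305, plus strand): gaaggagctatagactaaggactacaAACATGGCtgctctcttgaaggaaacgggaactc
Etv6 (chr6:134186089-134186148, minus strand): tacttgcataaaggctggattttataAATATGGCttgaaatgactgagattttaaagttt
Runx1 (chr16:92675932-92675991, minus strand): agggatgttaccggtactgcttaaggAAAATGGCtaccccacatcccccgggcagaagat
Runx3 (chr4:135181968-135182027, minus strand): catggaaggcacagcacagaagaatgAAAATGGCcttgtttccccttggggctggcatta
Runx1 (chr16:92796938-92796997, minus strand): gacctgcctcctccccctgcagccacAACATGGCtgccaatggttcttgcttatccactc

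In none of these 8 stretches was the core followed by G, the base that completes the longer YY1 motif AANATGGCG. The Vmn1r2 region also held the longer motif, at another place than the stretch shown. The next base was T in 6 of them, A near Vmn1r2 and C near Runx3. The Etv6 and both Runx1 sites lie in introns of those genes, and the other 5 sites are intergenic. The second set shows 3 weak distal regions that held no core YY1 motif in the central 500 bp window. They contained the PU.1 motif GAGGAAGT and the RUNX motif TGTGGTT, both in capitals. They were picked after their values were seen and do not represent all regions without the core motif. Nor were these motifs particular to such regions. PU.1 motifs occurred in 16.4% of weak distal regions with the core and 16.9% of those without, and RUNX motifs in 20.3% and 18.3%.

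Reep3 intron (chr10:67049423-67049485, plus strand): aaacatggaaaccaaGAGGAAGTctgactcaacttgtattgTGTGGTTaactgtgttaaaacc
Prg2, intergenic (chr2:84967429-84967564, plus strand): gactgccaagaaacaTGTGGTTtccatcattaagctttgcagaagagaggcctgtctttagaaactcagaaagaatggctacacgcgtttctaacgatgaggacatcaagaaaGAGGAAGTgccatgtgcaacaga
Ubash3b intron (chr9:41073665-41073714, plus strand): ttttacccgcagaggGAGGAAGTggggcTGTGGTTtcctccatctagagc

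At the transcript start of Xist, the deleted gene, the WT libraries had peaks of 3083 and 3222 bp and neither XistΔ/Δ library had a peak. Depth followed the replicate number in both genotypes. HOMER, which counts aligned reads or their ends as tags, gave 24.9 M tags in WT replicate 1, 50.0 M in WT replicate 2, 23.1 M in XistΔ/Δ replicate 1 and 59.5 M in XistΔ/Δ replicate 2. A peak needed 22 tags in each replicate 1 library, 33 in WT replicate 2 and 37 in XistΔ/Δ replicate 2. Scaled to the depth of the replicate 1 library of the same genotype, the replicate 2 thresholds correspond to 16.4 tags in WT and 14.4 tags in XistΔ/Δ, both under the 22 tags needed there. Replicate number, depth and any batch cannot be told apart in this design, so the regions are those seen in replicate 2 and not in replicate 1.

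Of the 19268 autosomal merged regions, 3457 had the pattern of both replicate 2 and neither replicate 1 library, which is 17.9%. Among the 6279 distal regions the share was 26.9%, and these are the 1686 weak distal regions. Among the 12989 regions within 3 kb of a start it was 13.6%, or 1771 regions, called weak proximal here. Of the 2990 distal regions with a peak in both replicate 2 libraries, 56.4% had none in either replicate 1 library, against 17.0% of the corresponding 10388 proximal regions. Only 599 distal regions were called in all 4 libraries, and these robust distal regions serve as the comparison below. The opposite pattern, both replicate 1 and neither replicate 2 library, occurred in 5 distal and 7 proximal regions.

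**Figure D1:**
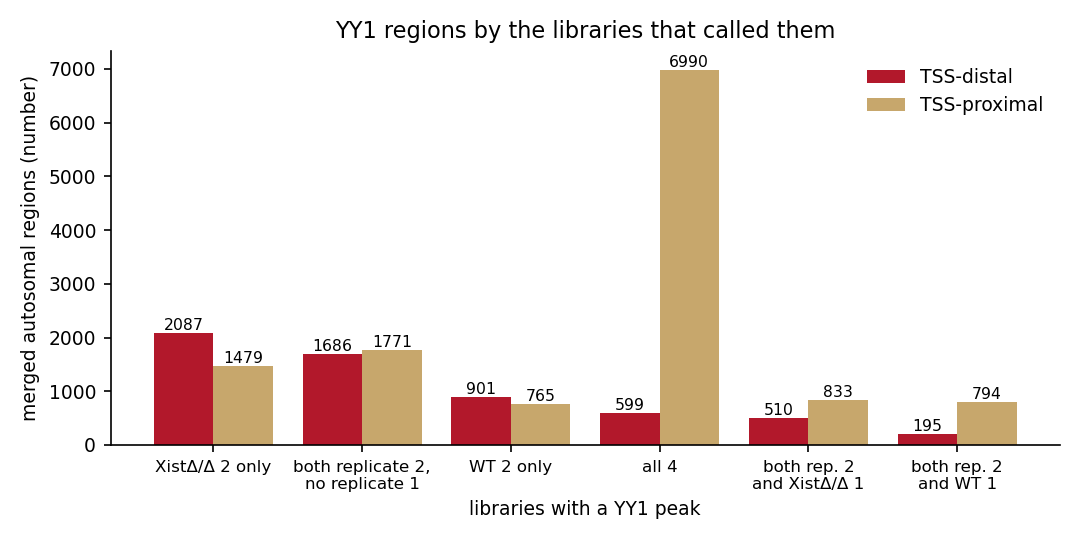
Number of merged autosomal YY1 regions (y axis) by the libraries that called a peak there (x axis), for regions over 3 kb from every transcript start (distal, red) and within 3 kb (proximal, tan); 6 frequent patterns are shown. The 1686 weak distal regions outnumber the 599 distal regions called in all 4 libraries, while 6990 proximal regions were called in all 4.

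Peaks at the weak distal regions were narrow, and width is the only size that the deposited lists give. The median width was 634 bp in WT replicate 2 (middle 50% of regions 501 to 772 bp) and 645 bp in XistΔ/Δ replicate 2 (501 to 782 bp). At robust distal regions it was 1032 and 1044 bp. Among all peaks of the same library, the weak distal peaks stood at a median percentile of 24.0 in WT replicate 2 and 29.6 in XistΔ/Δ replicate 2, against 55.6 and 61.1 for the robust distal peaks. A width of 501 bp, the smallest in the lists, was recorded for 39.4% of the weak distal peaks in WT and for 28.7% in XistΔ/Δ. By place in the lists, 1277 of the 1686 regions (75.7%) were outside the first 9553 peaks of both replicate 2 lists, 9553 being the length of the shortest list, and 136 (8.07%) were inside it in both. The name weak therefore describes most of these regions by width and by place in the lists, but not each of them. It was not checked that list order follows peak strength, and absence from the replicate 1 lists was part of the choice of regions.

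The genotypes were compared within replicate 2, with 1 library each and so without a replicate check. The XistΔ/Δ library was also the deeper, with 59.5 M tags and 18113 peaks against 50 M and 15933 in WT. Genotype and depth therefore cannot be told apart in this comparison. Of the 1686 weak distal regions, 810 (48.0%) had the wider peak in XistΔ/Δ, against 49.8% of the 13378 autosomal regions with a peak in both replicate 2 libraries. The WT peak was wider at 585 (34.7%), against 45.7% of all such regions, and 291 (17.3%) had equal widths, against 4.53%. More ties lower both other shares, so 48.0% and 49.8% are not directly comparable. The median difference, XistΔ/Δ minus WT, was 0 bp, and the middle 50% of differences ran from −72 to 141 bp. By percentile within its own library, 69.9% of the weak distal regions stood higher in XistΔ/Δ, against 65.3% of all regions with a peak in both. This percentile count includes 285 regions at the minimum width in both libraries, for which the sign is set by the share of minimum-width peaks in each list. Without them 63.8% of the weak distal regions stood higher in XistΔ/Δ, and the same exclusion was not made over all regions. The stretch covered by the peaks of both genotypes made up at least 50% of the merged region at 1531 weak distal regions (90.8%), against 96.0% of all autosomal regions with a peak in both libraries and 98.7% of robust distal regions.

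**Figure D2:**
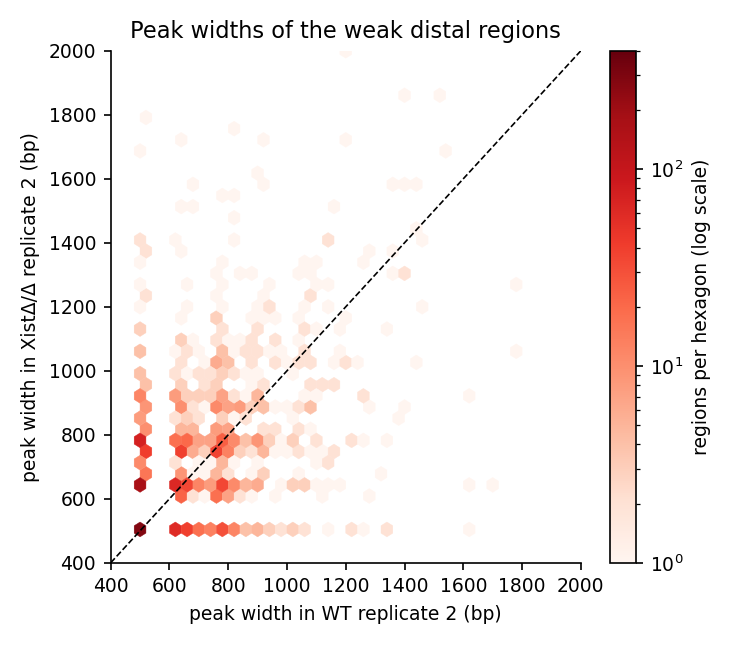
Peak width of the weak distal regions in WT replicate 2 (x axis, bp) and XistΔ/Δ replicate 2 (y axis, bp), with the number of regions per hexagon on a log colour scale and the dashed line at equal widths; regions wider than 2000 bp in either library are outside the axes. The densest hexagon, at 501 bp in both, holds 285 regions, and the remaining regions spread on both sides of the line.

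The YY1 motif itself was present in a minority of the weak distal regions. In 500 bp windows at the region centres, the core motif AANATGGC occurred on either strand in 311 of 1686 regions (18.4%, 95% Wilson interval 16.7 to 20.4). The same letters occurred in 11.0% of 500 bp windows tiled over the autosomes more than 3 kb from every start, a ratio of 1.68. Robust distal regions held it in 136 of 599 (22.7%, 19.5 to 26.2). The difference of −4.26 percentage points (95% interval −8.20 to −0.547) gave an odds ratio of 0.77 (0.61 to 0.975). It had p = 0.0265 by a two-sided Fisher's exact test, and an adjusted p of 0.0927 after Benjamini-Hochberg adjustment over the 14 motifs searched, so the core motif did not pass the threshold of 0.05. These tests count sampling of regions only, since regions are not replicates of a condition and all regions come from the same 4 libraries.

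The longer YY1 motif was rarer in weak than in robust distal regions. AANATGGCG, which contains the core and adds a G, occurred in 29 weak distal regions (1.72%) and in 38 robust distal regions (6.34%), with an odds ratio of 0.259 (0.152 to 0.435, adjusted p = 7.3e-07, Fisher's exact test). With all lists cut to the same length, which left 158 weak distal regions, the odds ratio was 1.2 (0.564 to 2.44), so the call was lost and the direction turned. In tiled windows it occurred in 0.713%. Counted over occurrences, the core was followed by G at 30 of 343 sites in weak distal regions (8.75%), at 39 of 155 sites in robust distal regions (25.2%) and at 704 of 1292 sites in proximal regions called in all 4 libraries (54.5%). T was the most frequent next base in the weak distal regions, at 138 sites (40.2%). The core itself was spelled AAAATGGC at 148 sites (43.1%) and AAGATGGC at 121 sites (35.3%), close to the 42.6% and 36.1% in robust distal regions. No test was run on the spellings.

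Motifs of blood transcription factors were found in similar shares of weak and robust distal regions. The PU.1 motif GAGGAAGT, bound by the master regulator of myeloid cells, occurred in 284 weak distal regions (16.8%, 15.1 to 18.7), in 82 robust distal regions (13.7%) and in 3.02% of tiled windows, so that its share in the weak regions was 5.58 times that of the genome. The difference from the robust regions was 3.16 percentage points (−0.285 to 6.29, adjusted p = 0.16, Fisher's exact test). The RUNX motif TGTGGTT, the site of RUNX1, a factor needed to form blood stem cells, occurred in 18.7% of weak and 17.2% of robust distal regions, against 11.3% of tiled windows. The C/EBP motif TTGCNNAA, read by factors of granulocyte and monocyte differentiation, occurred in 28.1% and 24.4%, against 22.2% of tiled windows. The AP-1 motif TGANTCA occurred in 18% and 14.7%, against 14.5%. None of these 4 motifs passed the threshold for a difference between weak and robust distal regions (adjusted p 0.16 to 0.645), and the intervals of the differences reach from −2.20 to 7.68 percentage points.

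GATA sites stood apart from the other blood motifs. AGATAA, the letters recognised by GATA1 and GATA2, occurred in 368 weak distal regions (21.8%) and 22.0% of robust distal regions, both below the 30.5% of tiled windows. The tiled windows are richer in A and T, with a mean GC content of 41.4% against 47.3% in weak and 50.7% in robust distal windows, and the part of base composition in this shortfall was not tested. The CTCF motif, the site of the insulator protein that folds chromosomes, occurred in 47 weak distal regions (2.79%) and in 25 robust distal regions (4.17%, odds ratio 0.659, 0.393 to 1.13, adjusted p = 0.16, Fisher's exact test), against 0.617% of tiled windows. In 1000 bp windows the CTCF difference passed the threshold (odds ratio 0.591, 0.4 to 0.881, adjusted p = 0.03, Fisher's exact test).

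The SP and ETS motifs were rarer in weak than in robust distal regions. The SP motif GGGGCGG, the site of SP1, occurred in 98 weak distal regions (5.81%) and 85 robust distal regions (14.2%), with an odds ratio of 0.373 (0.272 to 0.514, adjusted p = 1.07e-08, Fisher's exact test). The ETS motif CCGGAAG, typical of housekeeping promoters, occurred in 94 (5.58%) and 56 (9.35%), with an odds ratio of 0.573 (0.401 to 0.824, adjusted p = 0.00944, Fisher's exact test). Both lost the call with equal list lengths, and also when regions were compared within steps of GC content (odds ratio 0.723, 0.507 to 1.03, for SP and 0.78, 0.536 to 1.14, for ETS, Mantel-Haenszel), a setting added after the data were examined, while the longer YY1 motif kept its call within GC steps (odds ratio 0.22, 0.132 to 0.368). In the setting with GC steps the core YY1 motif passed the threshold, with an odds ratio of 0.64 (0.505 to 0.812). The E-box CAGCTG, the KLF motif CCACACCC, the NRF1 motif GCGCATGCG and the NFY motif ATTGGCT did not pass (adjusted p 0.16 to 0.752). Of the 14 motifs, 3 passed in the main comparison, all 3 with the lower share in the weak distal regions.

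**Figure D3:**
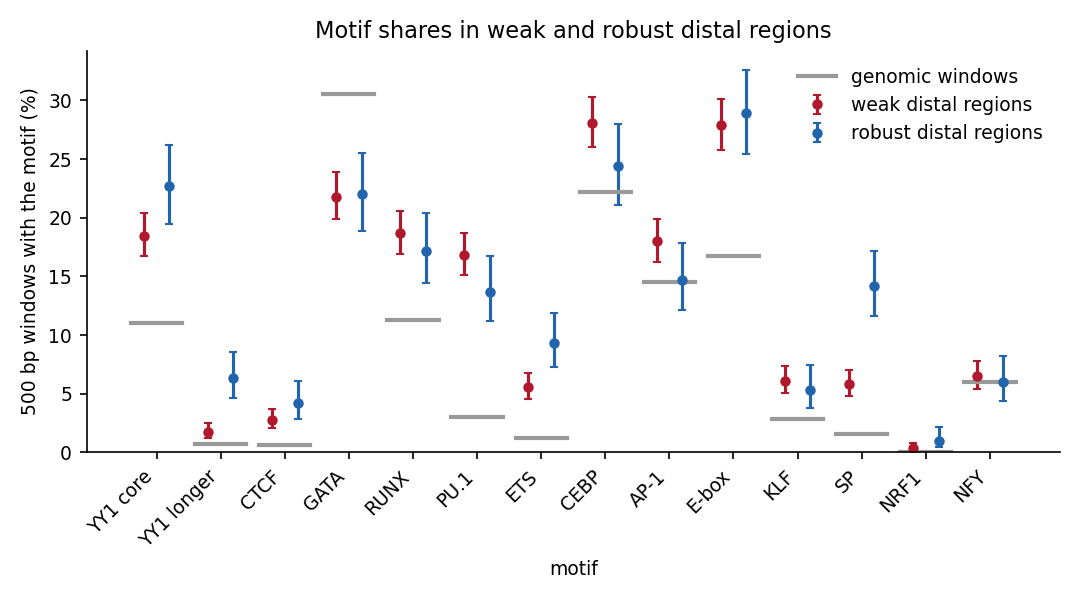
Share of 500 bp windows that contain each of 14 motifs (y axis, percent; x axis, motif) in the 1686 weak distal regions (red) and the 599 robust distal regions (blue), with 95% Wilson intervals, and in autosomal windows over 3 kb from every start (grey lines). The YY1 longer, SP and ETS motifs lie lower in the weak regions, and the PU.1 motif lies at 16.8% against 3.02% in the grey line.

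Within the regions, YY1, PU.1 and CTCF motifs were denser at the centre than in the flanks. The density of the core YY1 motif within 200 bp of the centre was 2.48 times that in the flanks 600 to 1000 bp away, and it was 3.3 times at robust distal regions. The PU.1 motif was more concentrated, at 5.42 times in weak and 5.1 times in robust distal regions. The ratio was 3.62 for CTCF with 47 motifs within 200 bp, 1.68 for C/EBP, 1.42 for RUNX, 1.29 for AP-1 and 0.86 for GATA in the weak distal regions. As the flanks come from the same regions, this ratio does not rest on the comparison with tiled windows, and it is given as a description.

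**Figure D4:**
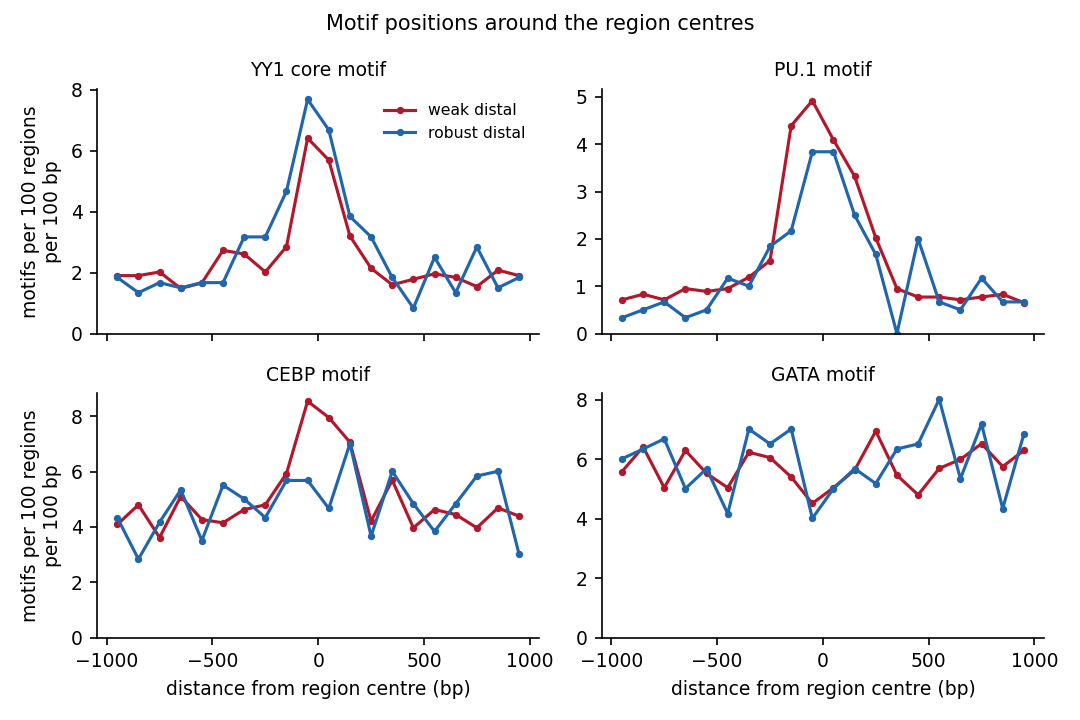
Motifs per 100 regions in 100 bp bins (y axis) by distance from the region centre (x axis, bp) for the YY1 core, PU.1, C/EBP and GATA motifs, in weak (red) and robust (blue) distal regions. The YY1 and PU.1 motifs rise at the centre in both classes, and the GATA motif does not.

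Regions with and without the YY1 motif had similar peak widths and PU.1 shares, compared without a test. The 311 weak distal regions with the core motif had median widths of 638 bp in WT replicate 2 and 643 bp in XistΔ/Δ replicate 2, against 634 and 647 bp for those without. The PU.1 motif occurred in 16.4% of the regions with and 16.9% of those without the YY1 core motif. Other motifs differed more, in both directions and without a test. The NFY motif occurred in 3.86% of regions with and 7.13% of those without the core, and the ETS motif in 3.22% and 6.11%. The AP-1 motif went the other way, at 20.9% and 17.3%. Ordered by width rank into 4 equal parts, the share with the core motif was 18.1%, 16.8%, 19.0% and 19.9%, and the Wilson intervals of all 4 parts overlapped. In 514 weak distal regions (30.5%) the central 500 bp window held none of the YY1 core, CTCF, GATA, RUNX, PU.1 and C/EBP motifs.

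The 1771 weak proximal regions have the same library pattern but lie near gene starts. Compared with them, the weak distal regions held more YY1 core, PU.1, RUNX, C/EBP, AP-1 and GATA motifs and fewer SP, ETS and NRF1 motifs. This comparison was added after the data were examined. The core YY1 motif occurred in 18.4% of weak distal and 10.1% of weak proximal regions (odds ratio 2.01, 1.64 to 2.47, adjusted p = 1.05e-11, Fisher's exact test over 14 motifs). PU.1 motifs occurred in 16.8% and 11.6% (odds ratio 1.55, adjusted p = 2.13e-05, exact test), and RUNX motifs in 18.7% and 12.4% (odds ratio 1.62, adjusted p = 1.01e-06). SP motifs occurred in 5.81% and 25.9% (odds ratio 0.177, adjusted p = 1.19e-60, exact test). The odds ratio was 1.67 for C/EBP (adjusted p = 9.08e-10, exact test), 1.55 for AP-1 and 1.27 for GATA. It was 0.406 for ETS (adjusted p = 1.85e-12, exact test) and 0.231 for NRF1. The CTCF, E-box, KLF and NFY motifs did not pass (adjusted p 0.0693 to 0.279, exact test). The longer YY1 motif occurred in 1.72% and 1.69%, a difference that was not detectable (odds ratio 1.02, 0.585 to 1.76). The mean GC content was 47.3% in the weak distal and 53.9% in the weak proximal windows, and its part in these differences was not tested.

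Weak distal regions lay in gene bodies more often than robust distal regions did. By their annotation in GENCODE M21, 766 (45.4%) were intronic, 126 (7.47%) overlapped an exon and 794 (47.1%) were intergenic, against 33.6%, 9.35% and 57.1% of robust distal regions. The odds ratio for intergenic position was 0.669 (0.552 to 0.811, p = 2.79e-05, Fisher's exact test). Distal regions called in XistΔ/Δ replicate 2 alone or in WT replicate 2 alone were also less often intergenic than robust ones, at 45.5% and 43.6%. An annotated UTR was overlapped by 52 of the weak distal regions. Distances to the nearest start were alike, with a median of 11.0 kb in weak and 11.9 kb in robust distal regions, and 774 weak distal regions (45.9%) lay 3 to 10 kb from a start and 17 more than 100 kb from one.

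CpG islands, the CpG-rich stretches typical of promoters, were rarer in the weak than in the robust distal regions. Windows with a GC content of at least 50% and an observed over expected CpG ratio of at least 0.6 made up 2.19% of weak distal regions (37 regions) and 16.7% of robust distal regions (100 regions), with an odds ratio of 0.112 (0.0737 to 0.167, p = 2.75e-32, Fisher's exact test). In tiled windows the share was 0.234%. It was 1.44% in distal regions called in XistΔ/Δ replicate 2 alone and 1.33% in those of WT replicate 2 alone. A share below that of robust regions is thus not particular to the weak distal regions. Soft-masked (repeat) sequence made up 18.7% of the bases in weak distal windows, 14.2% in robust distal windows and 34.9% in tiled windows.

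At the limit of 3 kb, the nearest regions inside lay 3001 bp from a start in an intron of C130026I21Rik, 3016 bp from a start in the intergenic DNA near Irf4, a lymphoid and myeloid transcription factor gene, and 3018 bp from a start within B3gnt2. The nearest regions outside, with the same library pattern, lay 2998 bp from a start in an intron of Xkr5, 2991 bp in an intron of Notch1, which encodes a receptor required for T cell fate, and 2982 bp in an intron of Kdm7a. Inside the limit, peak widths in WT and XistΔ/Δ replicate 2 were 793 and 1353 bp at C130026I21Rik, 501 and 501 bp near Irf4 and 1143 and 1420 bp at B3gnt2. Outside it they were 501 and 759 bp at Xkr5, 501 and 501 bp at Notch1 and 779 and 501 bp at Kdm7a. Each side held 1 region with the minimum width in both libraries.

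Blood genes were frequent neighbours of weak distal regions. At least 1 weak distal region lay within 100 kb of a start of 3995 of 20807 autosomal protein-coding genes (19.2%). Of 40 stem and progenitor transcription factor genes 20 (50.0%) had one, as did 13 of 30 genes of progenitor receptors and surface proteins (43.3%), 8 of 20 lymphoid genes (40%), 7 of 20 granulocyte and monocyte genes (35.0%), 8 of 25 erythroid and megakaryocyte genes (32.0%) and 3 of 25 neuronal genes (12%). The share was above 19.2% in all 5 blood lists and below it in the neuronal list. The 599 robust distal regions, fewer in number, lay near 8.3% of all genes, 32.5% of the stem and progenitor factor genes, 33.3% of the receptor list, 20.0% of the granulocyte and monocyte list, 15.0% of the lymphoid list, 8.0% of the erythroid and megakaryocyte list and 0 of the 25 neuronal genes. Shares above that of all genes were thus seen for robust regions as well, in 4 of the 5 blood lists. Neighbouring genes can share 1 region (Elane with Prtn3, Rag1 with Rag2, Pf4 with Ppbp), and genes with many or widely spaced starts have more DNA in reach, so the counts are a description, with no test.

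**Figure D5:**
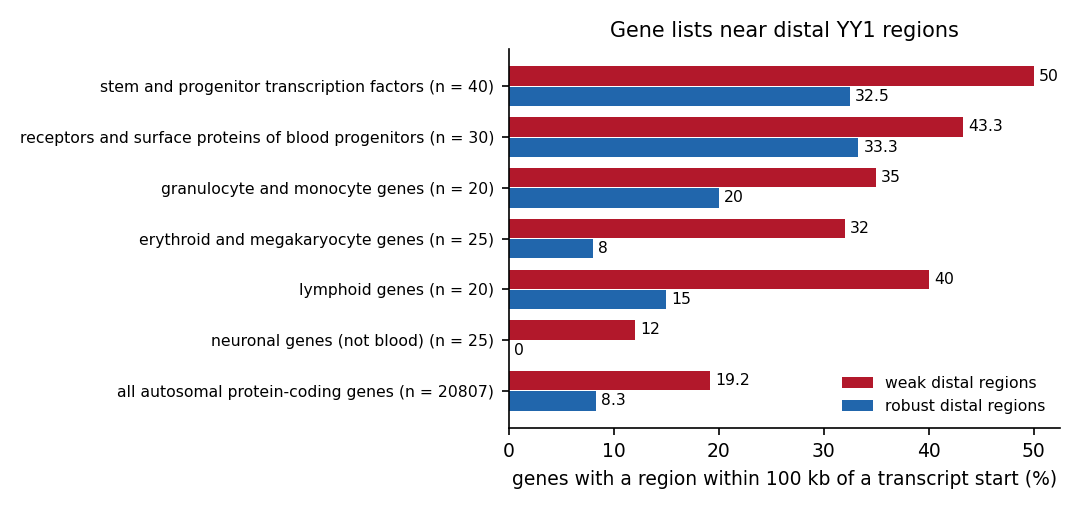
Share of genes with at least 1 weak (red) or robust (blue) distal region within 100 kb of a start (x axis, percent) for 6 gene lists and for all autosomal protein-coding genes (y axis, with the number of genes). The stem and progenitor factor list stands at 50.0% for weak distal regions, the neuronal list at 12% and all genes at 19.2%.

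The stem and progenitor factor loci held 34 of the weak distal regions, and 8 of these (23.5%) had the core YY1 motif. Foxp1, a forkhead repressor gene, had 5 regions within 100 kb. Its widest lay in an intron of the gene at chr6:99338277-99340188, with peaks of 814 bp in WT replicate 2 and 1417 bp in XistΔ/Δ replicate 2. The region spans 1912 bp, and its central 500 bp window held none of the 14 motifs. Runx1 and Hhex, the latter a homeobox gene of early blood development, had 3 each. The widest region at Runx1 lay in its intron at chr16:92675480-92676412, 19.1 kb from the nearest start, with peaks of 680 and 933 bp, and it held the first of the 2 Runx1 sequences printed above and an AP-1 motif. The widest near Hhex lay at chr19:37369926-37371342, 5.06 kb from a start of Kif11 and 63.5 kb from Hhex, with peaks of 1417 and 878 bp. Cebpb, Elf1, Ets1, Etv6, Fli1 and Runx3 had 2 regions each, and Cbfa2t3, Cebpa, Erg, Gfi1, Hoxb4, Ikzf1, Irf8, Lmo2, Nkx2-3, Prdm16 and Sox4 had 1.

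ETS family genes were among these loci, and at Ets1, Fli1 and Etv6 the widest region was intronic. The widest region at Ets1 lay in its intron at chr9:32653908-32654869 with peaks of 757 bp in WT and 796 bp in XistΔ/Δ replicate 2, and it held GATA and KLF motifs. At Fli1, a factor of stem cells and megakaryocytes, it lay in the intron at chr9:32499831-32501427 with peaks of 764 and 812 bp and a GATA motif. At Etv6, which is needed for stem cell survival in adult marrow, it lay in the intron at chr6:134185835-134186644 with peaks of 762 and 765 bp and the YY1 sequence printed above. At Elf1 it overlapped an exon with an annotated UTR at chr14:79535060-79536681, with peaks of 812 and 831 bp. In each of these 4 regions the widest peaks of the 2 genotypes differed by under 50 bp in width. The merged regions at Fli1 and Elf1 span 1597 and 1622 bp, far more than either peak. Near-equal widths there do not mean that the peaks cover the same stretch.

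Outside the factor genes, Kit, the stem cell factor receptor that marks blood progenitors, Il7r, Cxcr4, Ly6a and Slamf1 were among the receptor and surface protein genes with a weak distal region within 100 kb, with 2 regions for Slamf1 and 1 for each of the others. Elane and Prtn3, which encode proteases of neutrophil granules, had the same count of 2, and Itgam, a myeloid integrin gene, had 2. In the erythroid and megakaryocyte list, Vwf and Rhd had 3 each and Tfrc, the transferrin receptor gene, had 2. Each of the 8 lymphoid genes with a region, such as Ebf1, Rag1 and Dntt, had 1.

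The widest peaks among the weak distal regions lay in part at gene families and repeats. Ranked by the lower of the percentiles of the 2 libraries, the first 10 regions included 3 in a stretch of chromosome 13 near Prl2c3, a gene of the prolactin family of placental hormones. The first of these, chr13:12833602-12837574, had peaks of 2923 bp in WT replicate 2 and 2697 bp in XistΔ/Δ replicate 2, the 96.8th and 96.6th percentiles, and its window was 91.8% soft-masked. The second, chr13:12818894-12822090, had peaks of 3066 and 1370 bp and a window that was 100% soft-masked, and it carries the Prl2c3 sequence printed above. Regions at Naip6 and Naip3 on the same chromosome, near Vmn1r2 on chromosome 4 and near Zfp991 on chromosome 4 also lie in gene families with similar copies, where reads of low mapping quality were removed and counts are uncertain. The other 4 lay near Rubcnl with peaks of 1549 and 1692 bp, near Ppp2r5a with 1460 and 1388 bp, on chromosome 16 with 1457 and 1454 bp, where the nearest protein-coding start, that of Fam43a, was 188 kb away, and near Inpp5d with 1388 and 1318 bp. Inpp5d encodes SHIP1, a blood cell phosphatase, and its region, 11.5 kb from the start, held RUNX, AP-1 and E-box motifs.

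Some weak distal regions lay close together, and no level expected by chance was computed. With a limit of 10 kb between neighbours, 279 regions (16.5%) fell into 124 clusters, 117 of which were pairs. Of the robust distal regions, 12.2% lay within 10 kb of a weak distal region. Closeness to a region called in all 4 libraries was more frequent, at 20.5% of weak and 24.4% of robust distal regions. The largest cluster held 20 weak distal regions at chr13:12806990-12859198 near Prl2c3, and the next held 7 at chr13:12913582-12941551 near Prl2c2. A cluster of 5 lay at chr17:84100417-84124114 near Zfp36l2, which encodes an RNA-binding protein required for blood stem cells, and 1 of 4 lay on chromosome 16 near Olfr161. Without these 4 clusters and without windows at least 80% soft-masked, a setting added after the data were examined, 1637 regions were left, with the core YY1 motif in 18.3% and the PU.1 motif in 17.1%. Per chromosome, weak distal regions numbered 0.456 per Mb on chromosome 3 to 1.22 per Mb on chromosome 19, with a median of 0.709. They made up 22.0% of distal regions on chromosome 7 to 34.0% on chromosome 13, where 27 of them belong to the Prl2c3 and Prl2c2 clusters.

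Per library, the share of distal peaks with the core YY1 motif was 21.9% of 979 distal autosomal peaks in WT replicate 1 (19.4 to 24.6) and 19.7% of 4051 in WT replicate 2 (18.6 to 21). In XistΔ/Δ it was 23.4% of 1376 peaks in replicate 1 (21.2 to 25.7) and 17.6% of 5283 in replicate 2 (16.6 to 18.6). With all lists cut to the same length, the WT shares were 21.9% in replicate 1 and 22.8% in replicate 2, while those of XistΔ/Δ were 23.2% and 20.9%, so WT replicate 2 was then the higher one. No test was run between replicate numbers. The means were 20.8% ± 1.49 in WT and 20.5% ± 4.11 in XistΔ/Δ (SD, n = 2 each), a difference of −0.311 percentage points with p = 1 (exact permutation test, two-sided; the smallest p that 4 libraries allow is 0.333). Within replicate 1 the difference was 1.54 points, and within replicate 2 it was −2.16 points.

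Promoter peaks of marker genes were counted as a description only. A YY1 peak at a promoter is not expression, so the counts do not check the labelled cell type. Of 6 progenitor genes, Myb and Meis1 had a promoter peak in all 4 libraries, Kit in 2 and Cd34, Gata2 and Flt3 in 1. Of 6 genes of the depleted lineages, Ly6g, Cd3e, Cd4 and Cd8a had none, Itgam had one in 3 libraries, and Ptprc, which most blood cells express, had one in all 4.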

How the data were processed

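YY1 peak lists of 4 libraries were used (2 WT, 2 XistΔ/Δ, grouped by their labels), each mapped to 1 sample. Per the study's methods, the authors digested chromatin with micrococcal nuclease, aligned trimmed reads to mm10 with Bowtie2 (version 2.3.5.1, submitters' processing notes), removed alignments with quality under 30 and duplicates, and called peaks with HOMER findPeaks in each library (-size 500, local fold 4). Per the file headers, the false discovery rate was 0.001, no input library was named, and the local filter removed 0 putative peaks, so local copy number and open chromatin can add peaks. The deposited score is 1 for every peak, and other deposited columns give positions, so peak width served as size. Where a library had more than 1 peak in a merged region, the widest was taken. No tag count per peak was used. Histone mark samples were not analysed here.

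Peaks sharing at least 1 bp were merged. Motifs were searched with Python 3.11.15 on both strands of GRCm38 in 500 bp windows. Distances use all GENCODE M21 transcripts, from the region edge. Shares were compared with Fisher's exact test (scipy), with Benjamini-Hochberg adjustment over the 14 motifs, and library shares with an exact permutation test. The labels do not state whether libraries came from separate animals. Intervals cover counting error only. Scripts were tested on simulated data. The regions, motifs and gene lists were chosen with earlier results of these data known. Named regions were the 10 with the highest lower percentile of width, the widest near each of the 10 factor genes with most regions, and those nearest the 3 kb limit. Sequences are from the named regions or factor loci with the core motif, by width rank, none from chromosome 18. Alternatives were other distance limits, windows, merging gaps, equal list lengths and leaving out each library. Equal list lengths keep the first 9553 peaks of each list, and that list order follows strength was not checked.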

Additional observations from a re-analysis of the deposited data

How the results depend on the processing

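The number of weak distal regions, 1686, was 2178 with a limit of 1 kb, 2006 with starts of protein-coding genes only and 1643 when peaks under 500 bp apart were merged. It fell to 912 with a limit of 10 kb and to 158 with equal list lengths, and leaving out 1 library gave 1882 to 3836. The highest counts came without the second WT library (3836) and without XistΔ/Δ replicate 2 (2645), where only 1 replicate 2 library had to hold a peak.

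The odds ratio of the core YY1 motif against robust distal regions, 0.77 with an adjusted p of 0.0927, passed the threshold with whole regions (0.569), with the longer motif (0.259), with windows under 20% soft-masked (0.686), with a limit of 10 kb (0.626), within chromosomes (0.746) and within steps of GC content (0.64, added after seeing the data). Leaving out 1 library gave 0.641 to 0.859, and it passed without either replicate 2 library (0.641 for WT, 0.709 for XistΔ/Δ left out). With equal list lengths, which left 158 weak regions, it was 1.11 (0.712 to 1.7). Over all these alternatives the adjusted p ran from 1.37e-07 to 1.

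Among the 13 motifs other than the core, 3 passed in the main comparison, and the core did not. The number was 12 with whole regions, where robust regions are longer, 0 with equal list lengths and 1 within steps of GC content. With whole regions the odds ratios of RUNX (0.716), C/EBP (0.63), AP-1 (0.711), KLF (0.73) and NFY (0.544) fell below 1. In 1000 bp windows GATA (1.03) and NFY (0.836) changed side without passing, as did RUNX (0.994) and the E-box (1.04) within steps of GC content. Of the 13 motifs other than the core, 3 changed side with windows under 20% soft-masked and with a limit of 10 kb, 5 with equal list lengths and 0 to 3 without 1 library, none of them past the threshold. CTCF gained a call in 1000 bp windows (0.591) and with whole regions (0.42). The longer YY1 motif kept its direction and call except with equal list lengths (1.2). SP lost its call with equal list lengths and within steps of GC content, and ETS in 5 of 13 alternatives, among them without WT replicate 1 (odds ratio 0.816, adjusted p = 0.454, exact test). The odds ratios for intergenic position (0.641 to 0.778) and CpG islands (0.0575 to 0.193) kept their direction and call under all 6 alternatives each. The number of regions wider in XistΔ/Δ was 815 by summed width and 788 without clusters and repeats, and 1179 stood at a higher percentile.

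The replicate numbers do not mark shared animals in the labels, so the block is only a check of the library shares: the differences within numbers were 1.54 and −2.16 points, with a mean of −0.311, the same as without the block. Leaving out 1 library gave −3.22 to 2.6 points. No tag count per region was used, so strength within the weak regions rests on width alone.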

Other observations

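Distal regions called in only 1 replicate 2 library (2988 regions) were compared with the weak distal regions after the data were examined. They held more CTCF motifs (5.29% against 2.79%, odds ratio of the weak regions 0.514, 0.361 to 0.72, adjusted p = 0.00056, Fisher's exact test over 14 motifs) and more GATA motifs (26.2% against 21.8%, odds ratio 0.788, adjusted p = 0.00622). The CTCF share was 6.09% in the 2087 regions of XistΔ/Δ replicate 2 alone and 3.44% in the 901 of WT replicate 2 alone, with 1 library each and no replicate check. In the same order, GATA motifs occurred in 24.6% and 29.9%, the core YY1 motif in 14.4% and 19.1%, and PU.1 motifs in 16.0% and 12.1%. The YY1 share of the WT regions was thus above, and that of the XistΔ/Δ regions below, the 18.4% of the weak distal regions. XistΔ/Δ replicate 2 was also the deeper library, so genotype and depth cannot be told apart in these shares. With both classes pooled, the core YY1 motif occurred in 15.8% of the regions of 1 library against 18.4% (odds ratio 1.2, 1.02 to 1.41, adjusted p = 0.105, exact test), and the longer motif in 1.64% against 1.72% (odds ratio 1.05, 0.637 to 1.7). The PU.1 motif occurred in 14.8% against 16.8% (odds ratio 1.16, 0.985 to 1.37, adjusted p = 0.185, exact test).

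The share of weak distal regions with the core YY1 motif ranged from 6.67% on chromosome 12 to 32.1% on chromosome 16. The median over the 19 autosomes was 17.1%. These extremes rest on only 75 regions on chromosome 12 and 78 on chromosome 16, and a difference between chromosomes was not tested.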
